A study of Mus musculus with 24 samples.

Results

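Mouse embryonic fibroblasts (MEFs) that lack the ubiquitin ligases Siah1a and Siah2 were compared with wild-type MEFs after 12 h in medium without glucose. The comparison rests on 4 of the 24 arrays in the series, the 2 arrays labelled koGD and the 2 labelled wtGD, and a further 4 arrays of untreated KO and WT cells were used to set apart what the genotypes differ in without any treatment. The KO group is Siah1a-/-::Siah2-/- and the WT group carries both genes. For glucose deprivation (GD) the cells were kept in glucose-free medium with dialyzed serum, and the untreated cells of both genotypes were the controls. The related gene Siah1b was left intact, so the KO cells are not free of all SIAH ligases. The other 16 arrays hold the same genotypes under oxygen deprivation, oxygen and glucose deprivation, tunicamycin and thapsigargin.

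The mice had a mixed strain background, and in other experiments of the study the WT and KO MEFs were called litter-matched. No sex or embryo number was found for the cells on these arrays, and nothing in the sample descriptions says that the 2 arrays of a group came from separate cultures. The p-values below therefore measure only the spread between duplicate arrays, pooled over all 12 groups of the series, which may be technical. A difference between the genotypes cannot be told apart from a difference between the embryos that the cells came from. The number of arrays limits the precision.

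SIAH ligases are RING-type E3 enzymes that mark other proteins for degradation, among them the prolyl hydroxylases that keep the hypoxia-inducible factor HIF1 low when oxygen is present. A cell without glucose loses fuel for glycolysis and also the sugar donors for N-linked glycosylation, so that unfolded proteins gather in the endoplasmic reticulum (ER) and the kinase PERK raises the transcription factor ATF4. Glucose is also read directly by the transcription factor MondoA, whose targets Txnip and Arrdc4 are switched off when glucose 6-phosphate falls.

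Siah1a was called lower in the KO cells, as labelled, and Siah2 read lower. Siah1a gave normalized intensities of 1433 and 1155 on the WT arrays and 256 and 223 on the KO arrays under GD, a log2 difference (KO minus WT) of -2.43 ± 0.16 (SE of the limma fit, n = 2 arrays a group, adjusted p = 1.13e-07). The 2 KO arrays lay on either side of the background level of 235. Siah2 read 788 and 587 in WT and 343 and 317 in KO, with no overlap. Its difference of -1.04 ± 0.29 missed the threshold (adjusted p = 0.0541). Untreated cells differed by -1.12 for Siah2 (adjusted p = 0.037). Siah1b was at 2455 and 1574 in WT and 2468 and 1749 in KO, with overlapping groups and a difference of 0.08 (adjusted p = 0.97). Where on the transcripts the deletions lie relative to the probes was not examined, so a residual Siah2 signal says nothing about residual protein.

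The 8 arrays were alike in overall signal, with a median intensity of 204 and 37.7% of probes above the background level on each, as the authors' normalization gave all arrays nearly the same distribution. Duplicate arrays correlated at 0.972 for WT and 0.982 for KO under GD, and 3.96% of probes differed 2-fold or more between the WT duplicates against 1.89% between the KO duplicates. The fibroblast marker Vim, an intermediate filament protein, was at 37848 and 48492 in WT and 38595 and 44044 in KO, and all 14 measured fibroblast markers were above background on both KO GD arrays and 13 on both WT GD arrays. The endothelial markers Pecam1 and Cdh5 and the blood cell marker Ptprc were at or near background, between 161 and 238 on the 4 GD arrays. Of 6 measured endothelial markers, however, 2 were above background on both GD arrays of each genotype. Of 7 measured blood cell markers, 2 were above it on both WT GD arrays and 4 on both KO GD arrays.

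Under GD, 483 of 13111 genes tested differed between KO and WT at an adjusted p under 0.05 and at least 2-fold, which is 3.68%. Of these, 280 (2.14%) were higher and 203 (1.55%) lower in KO cells. The gene list was led on the higher side by a growth factor, a prostaglandin enzyme and placental hormones (Igf2, Ptgis and the Prl2c genes) and on the lower side by Gpr149, Stmn2, Cldn1, Aqp1 and Cyp7b1. At least 4-fold differences were seen for 97 higher and 57 lower genes. For 118 higher and 46 lower genes the dimmer genotype was not above background on either array, so only a lower bound of the fold can be given, and such bounds are written as "at least". For all 483 genes the 2 KO arrays did not overlap the 2 WT arrays. The genes were chosen on these same arrays, so this adds no support. How many of all genes tested separated in this way was not counted. The median log2 difference over all genes tested was -0.0047, and 797 genes passed the adjusted p at any fold.

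Most of these genes also separated the genotypes without treatment. In untreated cells 504 genes (3.84%) were called, 308 (2.35%) higher and 196 (1.49%) lower, and 400 genes were called in both conditions in the same direction, which is 82.8% of the GD calls and 79.4% of the untreated calls. Every one of the 483 GD calls had the same sign in untreated cells, where 435 also passed the adjusted p and 35 of those did so at less than 2-fold. The median size of the difference over the 483 genes was 1.59 on the log2 scale in both conditions. Across genes, which are not independent replicates, the KO effects under GD and in untreated cells correlated at r = 0.927 over all 13111 genes and 0.993 over the 483. These 2 comparisons share no array, but they share the 2 cell preparations, so the likeness is a description of these cells. Conversely, 104 genes were called in untreated cells and not under GD, all with the same sign under GD.

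**Figure D1:**
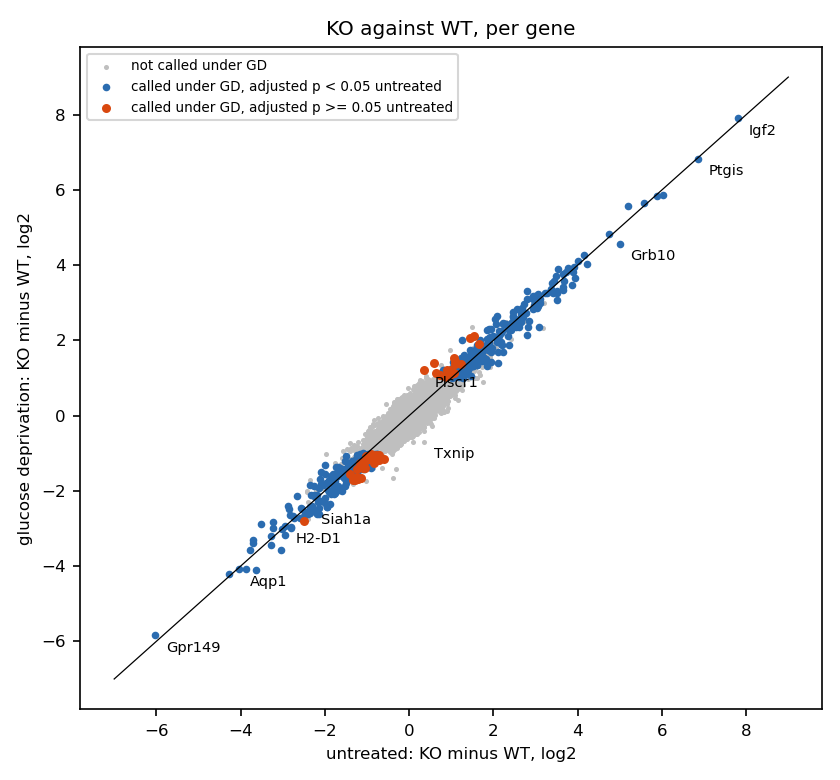
Each point is 1 of 13111 genes, with its log2 difference between KO and WT in untreated cells on the x axis and under glucose deprivation on the y axis, and the line marks equal differences. Genes called under GD (blue and orange, 483) lie along the line, the 48 orange ones missed the adjusted p in untreated cells, and Txnip and Plscr1 lie off it.

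The difference between these 2 differences was tested directly. No gene was called at an adjusted p under 0.05 in limma, and 97 genes (0.740%) had an unadjusted p under 0.05. That share lies far below the 0.05 that well-calibrated p-values would give if no gene changed. The test was thus conservative, and its lack of calls is weak evidence. With a term for the replicate number added to the fit, 164 genes were under 0.05 and 0 were called. The absence of calls does not show that the KO effect was equal in both conditions. The 95% interval of the change in KO effect had a median reach of 0.773 to either side on the log2 scale over the 483 called genes and 0.6 over all genes. It lay wholly within 1 log2 unit of 0, a 2-fold change of the KO effect, for 266 of the 483 (55.1%) and for 9734 of all genes (74.2%). A change of KO effect of at least 1 log2 unit at any p was seen for 3 genes, Txnip (-1.05), Dbp (-1.10) and Galnt15 (-1.27). For the circadian factor Dbp (5017 and 13264 in WT GD cells) and the glycosyltransferase Galnt15 (221 and 1681) the high value was that of WT GD replicate 2. When WT GD replicate 1 was left out, Galnt15 became the 1 gene called for the change (-2.73, adjusted p = 0.00742), resting on that single high array. Under the other treatments the KO effect of these genes was seen again: 313 of the 483 were called in untreated cells and also under oxygen deprivation and under oxygen and glucose deprivation, 197 were called in the same direction in all 6 conditions, and 23 were called under GD alone.

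Among the genes that were higher in KO cells under GD, the difference was largest for Igf2. Igf2, the imprinted fetal growth factor, was at 226 and 223 in WT, not above background, and at 56855 and 51646 in KO, at least 231-fold higher (adjusted p = 2.86e-14). The untreated arrays read 254 and 215 in WT and 58722 and 46932 in KO, so that within each genotype the arrays with and without glucose overlapped. Ptgis, prostacyclin synthase, was at 193 and 186 in WT and 25512 and 18114 in KO, at least 91.5-fold higher (adjusted p = 3.27e-10). Prl2c3, a member of the proliferin family of placental hormones, read 1084 and 519 in WT and 52909 and 34651 in KO, a difference of 5.83 ± 0.43. Prl2c2 and Prl2c4 gave 5.65 and 5.86, but these genes are near-identical copies and their probes may share targets, so they count as 1 signal of uncertain origin.

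Among the lower genes, Gpr149, an orphan receptor, read 11608 and 23840 in WT and 239 and 355 in KO, a difference of -5.84 ± 0.41 (adjusted p = 1.94e-07). The 2 WT arrays differed from each other about as much under GD as untreated (13688 and 25299), and replicate 2 was the higher one both times. Aqp1, a water channel, was at 16710 and 42040 in WT and 1475 and 1650 in KO (-4.09 ± 0.49, adjusted p = 6.52e-05). Stmn2, a microtubule-destabilizing protein best known from neurons, was at 3441 and 11608 in WT and 460 and 256 in KO (-4.20). Cldn1, a tight junction protein, was at 1676 and 6683 in WT and not above background in KO (184 and 203), at least 14.2-fold lower, and Cyp7b1, an oxysterol hydroxylase, was at 1856 and 5116 in WT and 180 and 189 in KO, at least 13.1-fold lower. In each of these genes the WT duplicates lay 2-fold or more apart while all KO arrays stayed far below both.

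**Figure D2:**
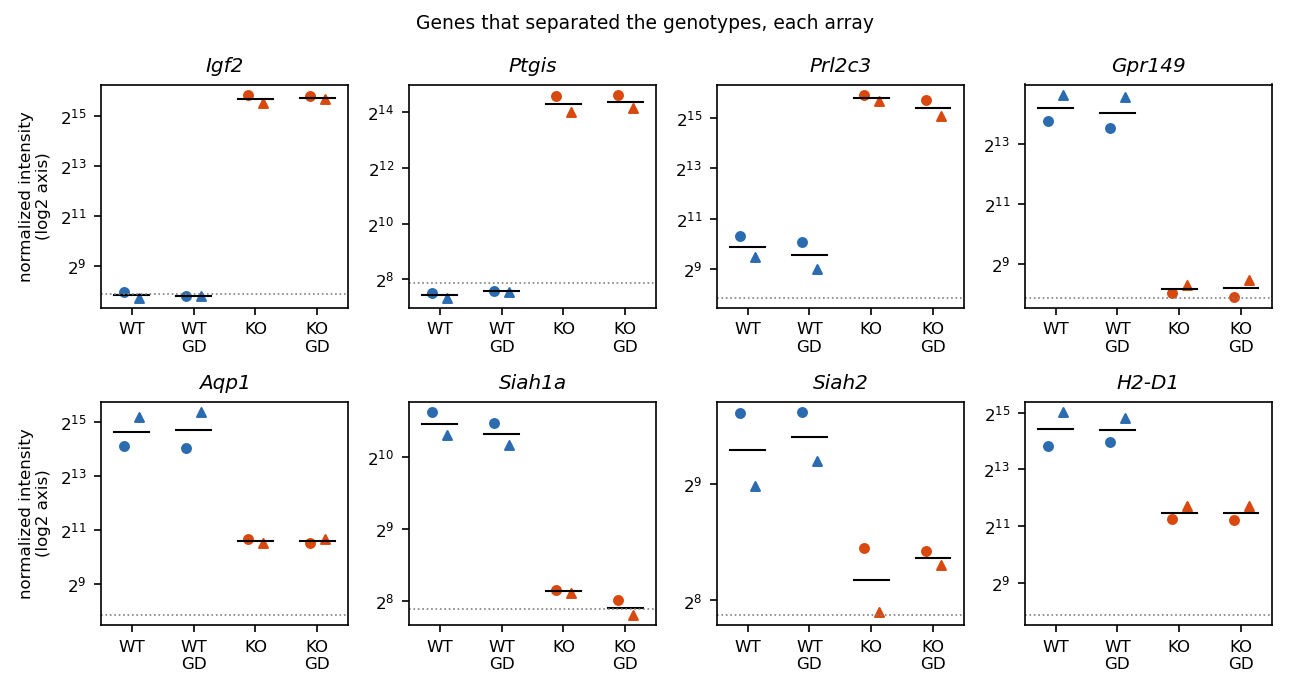
Normalized intensity on each array (log2 axis) for 8 genes in untreated and glucose-deprived (GD) WT (blue) and KO (orange) cells, with circles for replicate 1, triangles for replicate 2, a bar for the mean of the log2 values and a dotted line at the background level. In all 8 genes both KO GD arrays lie on one side of both WT GD arrays, and the GD and untreated arrays of a genotype lie close together.

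Glucose deprivation itself moved few genes past the threshold in either genotype. Unadjusted limma p-values under 0.05 were seen for only 2.35% of genes in WT and 1.08% in KO, so these tests were conservative too. Txnip, the thioredoxin-interacting protein that holds back glucose uptake, was the only gene called in WT cells (0.00763% of the genes tested) and the only one in KO cells (0.00763%). It read 5217 and 3510 on the untreated WT arrays and 486 and 624 on the WT GD arrays, and so fell by 2.96 ± 0.20 on the log2 scale (adjusted p = 4.69e-06). In KO cells it went from 6213 and 4822 to 393 and 296, and fell by 4.0 ± 0.20 (adjusted p = 5.45e-08). No GD array of either genotype overlapped the untreated ones, and the KO GD arrays were also the lowest of the 8, below both WT GD arrays.

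The genotype difference of Txnip had opposite signs with and without glucose, and neither passed the test. KO cells were not called different from WT without treatment (0.36, adjusted p = 0.499) and read below it under GD (-0.69 ± 0.20, adjusted p = 0.0677). The change of the KO effect was -1.05 (95% interval -1.65 to -0.44, unadjusted p = 0.00222, limma), which did not pass over 13111 genes (adjusted p = 1.00). A dimmer Txnip probe changed the same way, by -0.84. Arrdc4, the alpha-arrestin that MondoA controls together with Txnip, read 3551 and 1638 in untreated WT and 616 and 464 in WT GD cells. In KO cells it read 2651 and 2695 untreated and 732 and 692 under GD. Its values of -2.17 in WT and -1.91 in KO had unadjusted p of 0.000358 and 0.00111 and did not pass the adjustment. The GD arrays did not overlap the untreated arrays in either genotype, but the share of all genes with such separation was not counted. Between the genotypes Arrdc4 overlapped without treatment, and under GD both KO arrays read slightly above the WT arrays (0.41, adjusted p = 0.846). Of the 12 measured genes in the list of MondoA and ChREBP targets and partners, 0 were called between KO and WT under GD (list median -0.03).

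The promoters of Txnip, Arrdc4 and Chac1 are shown with their matches to elements known from glucose and ATF4 responses. Chac1 is another gene whose GD arrays did not overlap the untreated ones in either genotype. The genes were picked after their values were seen. Whether the elements act in these cells was not tested. The sequences are RefSeq promoter windows on GRCm38.p6, 250 bases before to 50 after the gene start, printed 5′ to 3′ on the strand of the gene, with matches in capitals. The Txnip window (chr3:96557707-96558006, + strand) holds a paired E-box, written here as CACGNG, any 5 bases and CACGNG, which is the form of the carbohydrate response element that MondoA binds. The match starts 85 bases before the gene start, and 0.0488% of 32817 mouse promoter windows hold one on either strand. Of the genes tested that have a window, 0.076% hold one. The paired E-box was not among the elements planned beforehand, so neither share is a test of the match. The Arrdc4 window (chr7:68749189-68749488, - strand) holds a single E-box, CACGTG, and no paired E-box. CACGTG is found in 7.15% of windows, and 11.1% of the genes tested have a window with it. The Chac1 window (chr2:119350992-119351291, + strand) holds TGATGNAA on the opposite strand, the composite element that ATF4 binds with C/EBP partners. It is found in 3.97% of windows and for 3.04% of the genes tested.
Txnip: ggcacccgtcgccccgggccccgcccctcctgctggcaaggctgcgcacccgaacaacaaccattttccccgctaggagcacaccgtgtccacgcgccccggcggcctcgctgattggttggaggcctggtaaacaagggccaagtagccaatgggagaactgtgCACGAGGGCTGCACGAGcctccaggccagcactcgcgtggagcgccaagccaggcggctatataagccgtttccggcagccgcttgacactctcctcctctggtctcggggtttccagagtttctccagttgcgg
Arrdc4: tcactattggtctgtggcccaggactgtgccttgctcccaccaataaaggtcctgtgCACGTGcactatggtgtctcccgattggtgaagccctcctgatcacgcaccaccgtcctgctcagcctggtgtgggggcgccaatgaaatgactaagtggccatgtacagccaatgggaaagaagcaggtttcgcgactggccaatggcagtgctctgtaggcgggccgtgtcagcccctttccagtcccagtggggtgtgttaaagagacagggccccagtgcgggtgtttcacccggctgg
Chac1: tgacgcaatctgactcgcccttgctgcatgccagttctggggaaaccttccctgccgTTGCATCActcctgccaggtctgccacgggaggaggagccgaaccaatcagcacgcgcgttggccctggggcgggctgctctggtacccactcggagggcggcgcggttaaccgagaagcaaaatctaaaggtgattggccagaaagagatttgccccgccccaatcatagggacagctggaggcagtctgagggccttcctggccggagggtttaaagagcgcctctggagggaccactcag

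A match is a description of the letters and not evidence of a bound site. Of the 24 genes that are named below as called under GD and not in untreated cells, 17 had a promoter window, and the 5 with the largest differences (Cbr2, Nppb, Siglecg, Sspn and Chst1) held no match to these elements, nor to the cyclic AMP element TGACGTCA, the interferon-stimulated response element or the ER stress element (CCAAT, any 9 bases and CCACG).

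No target of ATF4 passed the test for GD itself in either genotype, and KO cells had lower levels of 3 genes of the ATF4 list under GD. Chac1, a glutathione-degrading enzyme induced by ATF4, read 3903 and 3069 in untreated WT and 5398 and 10256 in WT GD cells. The KO arrays gave 1531 and 1587 untreated and 3003 and 3870 under GD. All GD arrays of a genotype were above its untreated arrays, by 1.10 in WT and 1.13 in KO on the log2 scale (unadjusted p = 0.00142 and 0.00118, adjusted p = 1.00 in both). KO minus WT was -1.13 ± 0.28 under GD (adjusted p = 0.0309) and -1.15 untreated (adjusted p = 0.0271), and the change of the KO effect was 0.03 (95% interval -0.83 to 0.88). Both KO arrays were below both WT arrays in each condition.

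Ddit3, the stress transcription factor CHOP, read 1296 and 508 untreated and 1595 and 4076 under GD in WT, and in KO it read 1227 and 1134 untreated and 2011 and 2238 under GD. WT replicate 2 was the lowest of the 8 arrays without treatment and the highest under GD, while the KO duplicates were close to each other. The genotypes overlapped in both conditions (KO minus WT -0.27 under GD, adjusted p = 0.9), and the change of the KO effect, -0.80, had an interval of -2.0 to 0.39. Trib3, a pseudokinase that CHOP and ATF4 induce, read 1201 and 2399 in WT and 1638 and 1768 in KO under GD. KO minus WT was 0.00 there (adjusted p = 1.00). Atf4 itself differed by 0.09 and its target Asns, asparagine synthetase, by -0.12, with adjusted p of 0.916 and 0.914. Atf3 and Fgf21, both stress-induced, stayed near background and differed by 0.24 and -0.28 (adjusted p = 0.589 and 0.829).

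Over the PERK/ATF4 list, 38 genes were measured, of which 0 were higher and 3 lower in KO cells under GD, which is 7.89% against 1.55% of all genes called lower. The list median was -0.10 against -0.0047 over all genes, and untreated cells had 2 lower, Chac1 and Cdsn, and a median of -0.14. The 3 were Chac1, Cdsn, a protein of skin cell junctions (-1.21, adjusted p = 0.012, with 2 further probes that were not called), and Nupr1, a stress-induced chromatin protein. Nupr1 read 8002 and 30915 in WT and 4650 and 5564 in KO (-1.63 ± 0.40, adjusted p = 0.0243), and WT GD replicate 2 was far above every other array. Without that array, or without KO GD replicate 2, 1 of the 38 genes was called, and without KO GD replicate 1 none was. The ER chaperone and ER degradation list had 32 measured genes, 0 higher and 1 lower in KO cells, the disulfide reductase Dnajc10 (8277 and 9246 in WT, 3896 and 4447 in KO, -1.07, adjusted p = 0.0407). Dnajc10 differed by -1.02 untreated (adjusted p = 0.0511), its 2 further probes were not called under GD, and 0 genes of the list were called whichever of the 4 GD arrays was left out. Hspa5, the ER chaperone BiP, was at 598 and 760 in WT and 393 and 442 in KO with no overlap, but its difference of -0.69 did not pass (adjusted p = 0.138).

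**Figure D3:**
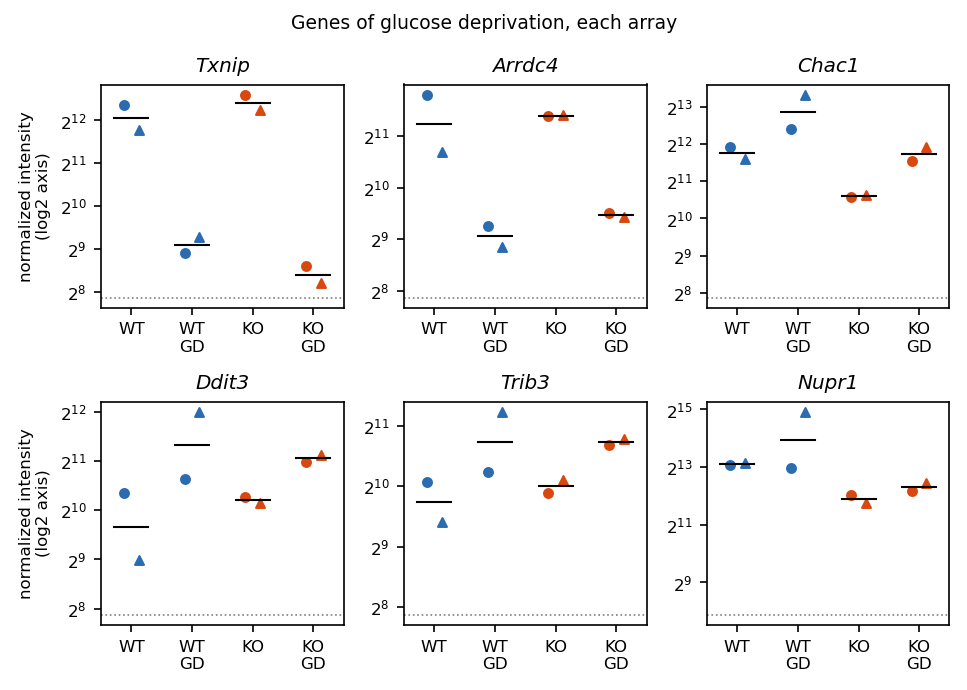
Normalized intensity on each array (log2 axis) for 6 genes that glucose deprivation (GD) or ATF4 is known to control, in WT (blue) and KO (orange) cells, with circles for replicate 1, triangles for replicate 2, a bar for the mean of the log2 values and a dotted line at the background level. Txnip fell in both genotypes, Arrdc4 read lower and Chac1 higher under GD in both without passing the test, and WT GD replicate 2 is the highest of its panel for Chac1, Ddit3, Trib3 and Nupr1.

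A few genes of glucose handling were higher in KO cells under GD, and Slc2a3 and Pdk4 were also called higher untreated. Slc2a3, the high-affinity glucose transporter GLUT3, was not above background in WT under GD (192 and 179) and at 678 and 513 in KO, at least 2.51-fold higher (adjusted p = 0.000236). Pdk4, the kinase that turns off pyruvate dehydrogenase, was at 185 and 166 in WT and 571 and 527 in KO, at least 2.33-fold higher (adjusted p = 2.93e-05). Pfkfb4, which sets the level of fructose 2,6-bisphosphate, was at 457 and 457 in WT and 964 and 943 in KO (1.06 ± 0.20, adjusted p = 0.00379). These were the 3 called members of the 24 measured in the list of glucose transport and glycolysis, all higher in KO (12.5%, against 2.14% of all genes), and the list median was -0.03. Untreated cells had 2 higher, 1 lower and a median of -0.08.

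Slc2a1, the ubiquitous transporter GLUT1, was called lower in untreated KO cells (4202 and 5663 against 9356 and 10548 in WT, -1.03, adjusted p = 0.0162) and not under GD (5548 and 8848 against 9368 and 12187, -0.61, adjusted p = 0.205). The change of its KO effect, 0.42, had a 95% interval of -0.29 to 1.12 that spans 0. The glycolytic enzymes Gapdh (0.03), Pkm (-0.04), Aldoa (-0.21) and Ldha (-0.43) were not called under GD. Of 32 measured HIF1 targets 2 were higher (6.25%, against 2.14% of all genes), Slc2a3 and Pfkfb4 again, and 0 lower. Untreated cells had 1 higher and 2 lower. Vegfa, the vascular growth factor, read 3291 and 5669 in WT and 3017 and 3119 in KO (-0.49, adjusted p = 0.53). The prolyl hydroxylase Egln1 differed by -0.55 (adjusted p = 0.52). Egln3, a second one, was not above background in WT (227 and 163) and at 424 and 462 in KO, at least 1.88-fold higher in these arrays, and was not called (adjusted p = 0.378).

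The 48 genes called under GD that missed the adjusted p in untreated cells, 19 higher and 29 lower, differed in the same direction without treatment. All 48 had the same sign and a smaller difference in untreated cells, where 46 had an unadjusted p under 0.05, and 1 of the 48 had an unadjusted p under 0.05 for the change of the KO effect. The larger size under GD follows in part from the choice, since genes were taken for passing there. Their untreated differences ran from 0.365 to 2.50 in size and their GD differences from 1.01 to 2.79. In a fit of the 8 untreated and GD arrays alone, 10 of the 48 were still called, against 298 of the other 435. With no filter on dim probes the counts were 31 and 425. In 23 of the 29 lower genes WT GD replicate 2 was above replicate 1, by a median of 0.662 on the log2 scale over the 29, against 0.157 in the untreated WT arrays. Without WT GD replicate 2, 3 of the 48 were still called, against 315 of the other 435. Without KO GD replicate 1 or 2, 8 and 9 were, and without WT GD replicate 1, 32.

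Plscr1, a phospholipid scramblase that interferon induces, was the 1 gene of the 48 with a small p for the change. It read 2038 and 2734 in untreated WT, 2961 and 3121 in untreated KO, 1684 and 1988 in WT GD and 4377 and 4138 in KO GD cells. KO and WT did not overlap in either condition, and the gap was 0.36 untreated (adjusted p = 0.315) and 1.22 ± 0.16 under GD (adjusted p = 0.000221). The change of 0.85 (95% interval 0.36 to 1.35, unadjusted p = 0.00219) did not pass the adjustment. A second Plscr1 probe differed by 0.77 untreated and 0.86 under GD, a change of 0.09, so the 2 probes of the gene disagree on whether the KO effect moved.

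Among the other higher genes of the 48, Kprp, a keratinocyte protein, was at least 3.02-fold higher (160 and 166 in WT, 976 and 516 in KO) and Nppb, the natriuretic peptide BNP, at least 3.25-fold (191 and 178 in WT, 925 and 632 in KO). The homeobox gene Hoxa5 (1.37), the ephrin ligand Efnb1 (1.14) and cytidine deaminase Cda (1.22) were higher too, as were the sialic acid receptor Siglecg (1.91), the epidermal protein Sbsn (1.45), the myosin light chain kinase Mylk2 (1.39), the secreted kinase Pkdcc (1.37), Tmem223 (1.53) and Frmd5 (1.20). On the lower side, Cbr2, a carbonyl reductase, was at 2261 and 846 in WT and at background in KO (186 and 214), at least 5.89-fold lower with an adjusted p of 0.0499. Inhba, the activin A subunit, was at 19677 and 15015 in WT and 6813 and 5089 in KO (-1.55), and the cytokine Il15 was at least 2.29-fold lower. The transcriptional repressor Trps1 (-1.72), the small heat shock protein Hspb2 (at least 2.95-fold), the protocadherin Pcdh1 (-1.69) and sarcospan, Sspn (-1.66), were lower, and so were the sulfotransferase Chst1 (-1.65), the Golgi protein Golim4 (-1.40), the formin Daam1 (-1.40) and Ltbp4, which binds latent TGF-beta (-1.40). A further probe was called in the same direction for Sbsn, Trps1, Daam1, Ltbp4 and Pkdcc, and at least 1 further probe of each of these genes was not called. No further probe of Mylk2, Siglecg, Pcdh1, Il15 or Frmd5 was called, and those of Mylk2 and Frmd5 averaged below background in both groups. Egfr, the EGF receptor, belonged here as well, with 4946 and 11834 in WT and 3458 and 3431 in KO (-1.15 ± 0.28, adjusted p = 0.0263), against -0.59 untreated. Only WT GD replicate 2 lay outside the range of the untreated WT arrays (5607 and 5730) on the high side.

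**Figure D4:**
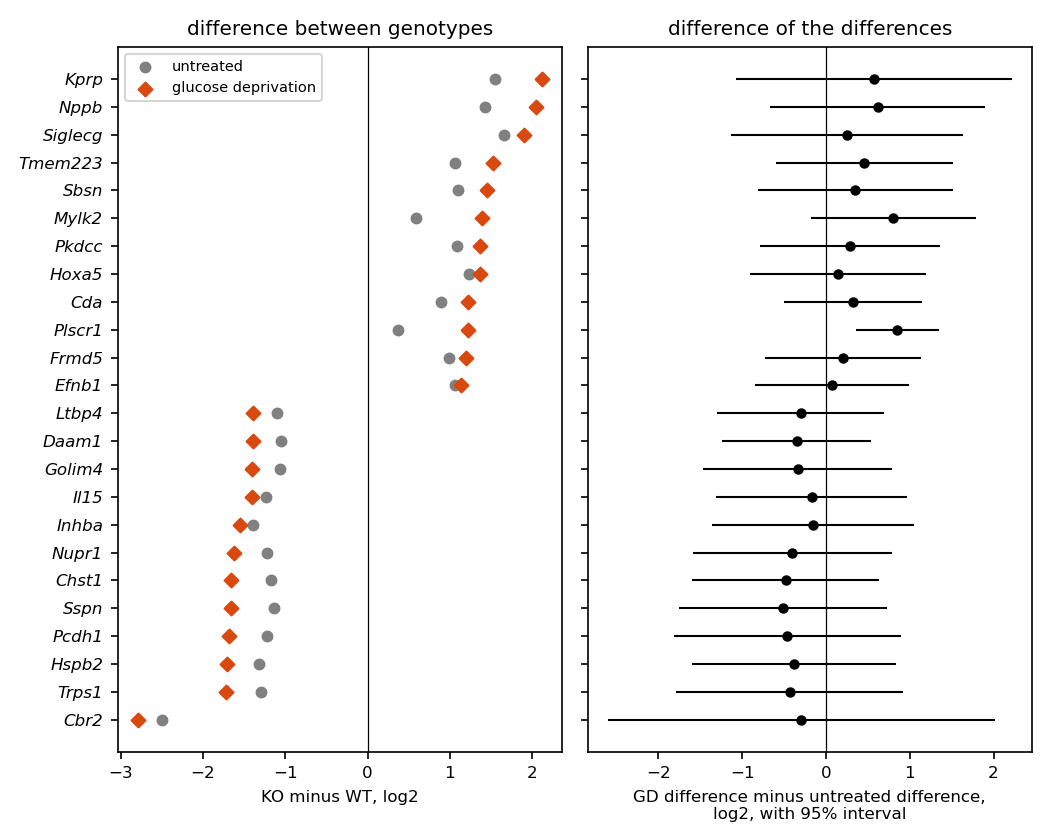
The 12 highest and 12 lowest of the 48 genes called under GD that missed the adjusted p in untreated cells, with the log2 difference between KO and WT in each condition on the left and the change of that difference with its 95% interval from limma on the right. Every interval but that of Plscr1 spans 0.

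Genes of antigen presentation by MHC class I, which displays peptides to cytotoxic T cells, were lower in KO cells. Of 21 measured, 9 were called lower and 0 higher under GD (42.9%, against 1.55% of all genes called lower), with a list median of -1.13, and untreated cells had 12 lower and a median of -1.14. The class I heavy chain H2-D1 read 16198 and 28908 in WT and 2405 and 3347 in KO (-2.93 ± 0.44, adjusted p = 0.000574). Psmb8 and Psmb9, catalytic subunits of the immunoproteasome, differed by -2.72 and -2.68. Peptide transporter subunits followed the same direction, with Tap1 at least 2.78-fold lower and Tap2 at -1.41, and Nlrc5, the transactivator of class I genes, was at least 2.31-fold lower (adjusted p = 0.000285). H2-K1 (-2.56), H2-Q7 (-1.78) and H2-T23 (-1.73) were lower as well, but H2 genes are close copies whose probes may share targets, so single members are uncertain. Of 3 further H2-D1 probes 2 were called lower and 1 was not, and neither further H2-K1 probe was called. B2m, the common light chain, differed by -0.89 under GD (adjusted p = 0.000733), short of 2-fold, and by -1.06 untreated. Leaving out 1 of the 4 GD arrays left 7 to 9 of the 21 called.

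Interferon-stimulated genes were lower in KO cells in fewer members under GD than untreated. Of 32 measured, 5 were called lower under GD (15.6%, against 1.55% of all genes called lower) with a median of -0.75. Untreated cells had 12 lower and a median of -1.04. None of the 32 changes of the KO effect had an unadjusted p under 0.05. The 5 were Ccl5, a chemokine (4467 and 5252 in WT, 776 and 790 in KO, -2.63, adjusted p = 0.000791), the guanylate-binding protein Gbp3 (-2.13), the oligoadenylate synthetase family members Oas1g (-2.40) and Oasl2 (at least 3.3-fold lower), and Irf9, part of the interferon transcription complex (-1.37). The mean log2 intensity of the list was 10.60 and 10.12 on the untreated WT arrays and 10.42 and 9.45 on the WT GD arrays, against 9.0 and 9.34 on the untreated KO arrays and 9.01 and 9.05 on the KO GD arrays. WT GD replicate 2 was thus the lowest WT array, and Usp18, the protease that removes ISG15 and limits interferon signalling, shows it plainly with 6405 and 581 in WT and 238 and 296 in KO (-2.86, adjusted p = 0.074). Without WT GD replicate 2, 14 of the 32 were called lower, and without any 1 of the other 3 GD arrays, 2 were.

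Genes of the insulin-like growth factor (IGF) axis were called in both directions. Of 23 measured, 6 were called higher and 2 lower under GD (34.8%, against 3.68% of all genes), with a median of 0.26, and the same 8 were called untreated, where the median was 0.25. Besides Igf2, the ligand Igf1 was at least 3.13-fold higher (210 and 216 in WT, 658 and 821 in KO). The IGF binding proteins Igfbp3 and Igfbp6, which hold the ligands outside cells, were at least 11-fold and 38.5-fold higher, and Igfbp2 was at least 3.87-fold lower. The receptor adaptors parted, with Grb10 higher by 4.57 ± 0.70 (1628 and 428 in WT, 18360 and 21369 in KO) and Grb14 lower (-2.46). Of 19 imprinted growth genes, 5 were called higher (26.3%, against 2.14% of all genes) and 0 lower, Igf2, Grb10, Mest (4.84), Ndn (3.26) and Dcn (1.44). The list median was 0.16, and untreated cells had the same 5 higher and a median of 0.33.

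Wnt pathway genes were called higher in 6 of 29 (20.7%, against 2.14% of all genes) and lower in 0 under GD, with a median of 0.33, and untreated cells had 8 higher, 0 lower and a median of 0.39. The ligand Wnt5a was at 430 and 249 in WT and 2178 and 2565 in KO (2.85 ± 0.29, adjusted p = 1.07e-05), and its receptor Ror2 was higher by 2.07. Wnt6 and Wnt7b were at least 2.81-fold and 2.79-fold higher, and the secreted Wnt-induced proteins Ccn4 and Ccn5 by 2.36 and 1.88. Of 2 dimmer Wnt5a probes, 1 was called higher (2.36) and 1 averaged below background in both groups, and a dimmer Ccn4 probe was not called. Without WT GD replicate 2 or KO GD replicate 2, 3 of the 29 were called. The fibroblast matrix list had 4 of 33 higher (12.1%, against 2.14% of all genes) and 0 lower under GD, with a median of 0.45, and 5 higher with a median of 0.72 untreated. The 4 were the small proteoglycans Dcn and Prelp (2.44), the matrix glycoprotein Thbs2 (3.82) and Col18a1, a basement membrane collagen (1.16). Without WT GD replicate 2, 2 of the 33 were called. Col1a1, the main fibrillar collagen chain, read 6642 and 3825 in WT and 18752 and 19210 in KO with no overlap and did not pass (1.91, adjusted p = 0.0796). Among metalloproteinases and inhibitors, Mmp3 (3.11) and Timp3 (2.36) were higher and Mmp16 (-1.46) lower, of 22 measured (13.6% called, against 3.68% of all genes). The same 3 were called in the same direction untreated. Of 2 dimmer Timp3 probes 1 was called higher (2.14) and 1, near background, was not.

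Of 42 glutathione and peroxide genes, 8 were called under GD (19%, against 3.68% of all genes), 5 higher and 3 lower, with a median of 0.13, and untreated cells had 5 higher, 2 lower and a median of 0.05. The glutathione transferases Gsto2 (2.64), Mgst1 (2.73), Gstt3 (1.81), Gstk1 (at least 2.25-fold) and Gsta4 (1.12) were higher, and Gpx7, an ER peroxidase, was at least 6.61-fold lower (1149 and 2101 in WT, 188 and 195 in KO), with Gstm5 (-1.03) and Cbr2. Without KO GD replicate 1, 4 were called higher and 1 lower. In prostaglandin synthesis 2 of 10 were higher, Ptgis and Pla2g7 (at least 2.73-fold), and 1 lower, the prostaglandin E synthase Ptges (-1.54, adjusted p = 0.0497). These made 30% of the list, against 3.68% of all genes. Acot1, a fatty acyl-CoA thioesterase, was at least 5.35-fold higher, and with Pdk4 made 2 of 20 genes of fatty acid oxidation (10%, against 3.68% of all genes). Scd1, stearoyl-CoA desaturase, was the 1 of 27 genes of lipid synthesis (1.14). Ctsa was the 1 of 29 of autophagy and lysosomes (1.00, with 4 further probes that were not called). Casp1 was the 1 of 31 apoptosis regulators (at least 2.05-fold higher). In that order, these lists had 3.7%, 3.45% and 3.23% of members called, near the 3.68% of all genes. The calls of the prostaglandin, fatty acid oxidation, lipid synthesis, autophagy and apoptosis lists were all made in untreated cells too, in the same direction. Among 38 chemokine, cytokine and NF-kB genes, Ptx3 was higher (3.75) and Ccl5, Tlr2 (-1.85) and Traf1 (-1.86) lower (10.5% called, against 3.68% of all genes). These 4 were also called in the same direction untreated. Hspb2 was the 1 of 22 cytosolic and mitochondrial heat shock proteins (4.55%, also near the share of all genes).

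Several processes that glucose bears on held no call between the genotypes under GD, nor in untreated cells. With 3.68% of all genes called under GD, few calls would fall in any 1 list of this size, so a single empty list says little. The lists were grouped here because they held no call, and their joint absence of calls was not tested. None was called among 45 genes of the cell cycle (median -0.04), 39 of the respiratory chain (0.09), 42 of ER-Golgi transport (0.07), 37 of the pentose phosphate, hexosamine and glycosylation routes (0.03), 30 immediate early genes (0.06), 23 p53 targets (0.06) and 20 FOXO targets (-0.05). Without WT GD replicate 1, 2 immediate early genes and 1 p53 target were called lower and 1 ER-Golgi gene higher. A list without a call can still hold large differences at 2 arrays a group: Ier3 (1.73), Dusp4 (1.56) and Klf4 (-1.18) among the immediate early genes and Ccnd2 (-1.23) among the cell cycle genes differed by over 2-fold without passing the test.

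**Figure D5:**
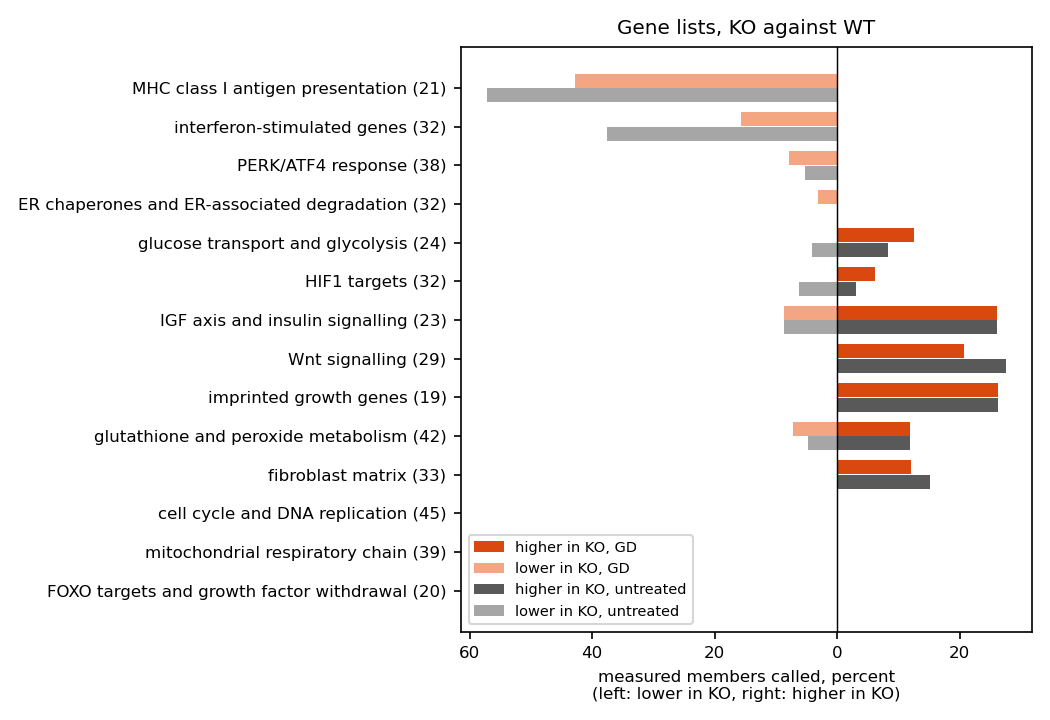
Share of measured members called higher (to the right) or lower (to the left) in KO against WT cells for 14 gene lists, with the number measured in brackets, under glucose deprivation (orange) and untreated (grey). The MHC class I list reaches 42.9% lower under GD, and the last 3 lists hold no call in either condition.

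Markers of other cell types and of sex moved with genotype, and their part in the results above was not tested. Of 9 neural markers, Sox10 was at least 4.41-fold higher and Gap43 (-2.49), Sox2 (at least 3.35-fold) and Stmn2 lower in KO GD cells, with list means of 10.23 and 10.42 in WT and 9.65 and 9.53 in KO. In the muscle list Myl7 was at least 2.43-fold higher (1 of 9), in the epithelial list Cldn1 was lower (1 of 8, with Cdh1 near background at 277 and 192 in WT and 237 and 207 in KO), and the endothelial (6), blood (7) and chondrocyte, bone and fat (9) lists had 0. Fibroblast markers gave 2 higher, Thy1 (at least 3.82-fold) and Prrx1 (1.70), and 1 lower, S100a4 (-1.52), of 14. The called shares were 44.4% (neural), 11.1% (muscle), 12.5% (epithelial) and 21.4% (fibroblast), against 3.68% of all genes. Every one of these calls was also made in untreated cells in the same direction. Xist, the RNA of the inactive X chromosome, was at 3493 and 2462 in WT and 288 and 212 in KO GD cells, while the Y-linked Eif2s3y was at 187 and 185 in WT and 2339 and 2992 in KO and Kdm5d at 166 and 191 in WT and 472 and 768 in KO. Xist, Eif2s3y and Kdm5d were called in the same direction in untreated cells. Genotype and the sex of the embryos therefore cannot be told apart here.

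Homeobox genes of the Hox clusters, which mark position along the body axis, were looked at after their values were seen. Of 33 measured, 5 were called higher and 4 lower in KO GD cells, against 2.14% and 1.55% of all genes. Hoxb5 (1.40), Hoxb6 (at least 2.18-fold), Hoxb7 (at least 7.06-fold), Hoxb9 (at least 3.17-fold) and Hoxa5 were higher, and Hoxa7 (-1.88), Hoxd8 (-1.55), Hoxd9 (at least 3.23-fold) and Hoxd10 (at least 2.36-fold) were lower. All but Hoxa5 were called in the same direction in untreated cells.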

How the data were processed

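RNA from 24 samples of mouse embryonic fibroblasts, 2 arrays in each of 12 groups of genotype and treatment, was amplified, labelled with Cy3 and hybridised to 1-colour Illumina Mouse-6 BeadChips. The intensities used here are those the authors deposited after normalization in GenomeStudio, on a linear scale, and the version and the algorithm of that step are not given in the sources used here. A second deposited table, without normalization, was not used, because its 24 signal columns could not be matched to samples by name. No p-values or fold changes of the authors were used.

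Intensities were log2 transformed. The background level of 235 was set from the low mode of all intensities (182) and the spread below it, at an upper tail of 0.01. A probe was kept when it exceeded this level on at least 1 array, which left 25962 of 45281 probes (57.3%). Of the 45281 probes, 34885 had 1 gene symbol in the platform annotation, 18 had several and 10378 none, and symbols were checked against RefSeq by gene ID (34807 matched). The 21472 kept probes with 1 gene gave 13111 genes, each represented by the probe brightest on average over all arrays, and 5360 genes had further kept probes.

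All 24 arrays were fitted with 1 mean per group in limma 3.58.1 (R 4.3.3; lmFit and eBayes, 12 residual degrees of freedom). Every adjusted p in the text is limma's two-sided p after Benjamini-Hochberg adjustment over all kept probes, and a gene was called at an adjusted p under 0.05 and a difference of at least 1 on the log2 scale. The contrasts were KO minus WT under GD, the same in untreated cells, the difference between these, and GD minus untreated within each genotype. The fitting step was run on simulated data with known changes and independent noise. Those data lacked the shared shifts of same-numbered arrays, and changes were placed only in brighter probes. They do not show how the test behaves with such shifts or near background. Where both arrays of the dimmer group were at or below the background level, the fold is a lower bound computed against that level or the probe's own signal, whichever was higher.

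The genes named were the 5 highest and lowest called under GD, the 12 highest and lowest of those that missed the adjusted p in untreated cells, up to 4 called members of each gene list, a set list of SIAH, glucose and ER stress genes, and genes called for GD itself. Hk2 and Gdf15 of that set had no kept probe. Dbp, Galnt15, Usp18, Ier3, Dusp4, Klf4, Ccnd2, Prl2c2, Prl2c4, B2m, Col1a1, the cell type markers, the glycolytic enzymes, the Hox genes and members beyond 4 of a list were named after their values were seen. The comparison and the gene lists were chosen with earlier results of these data known. Alternatives to the level, filter, scaling, fit, threshold and probe choice, a replicate block, and each array left out in turn were tried.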

Additional observations from a re-analysis of the deposited data

How the results depend on the processing

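The count of 483 genes between KO and WT under GD kept within 1.5 times under 10 of 12 other settings and whichever array was left out (365 to 597). The exceptions were a fit of the 8 untreated and GD arrays alone, with 315 genes (199 higher and 116 lower), and the adjusted p at any fold, with 797 (442 higher and 355 lower). In untreated cells these 2 settings gave 332 and 834. The change of the KO effect had 0 calls except 1 (Txnip) at an unadjusted p with 2-fold and 1 (Galnt15) without WT GD replicate 1, a range of 0 to 1 over the arrays left out. The WT response had 0 calls in the fit of 8 arrays, 9 at an unadjusted p with 2-fold, and 1 to 9 as arrays were left out. Of the 9 without WT GD replicate 1, Txnip and Pif1 were lower and Galnt15, Nupr1, Klhl24, Sfswap, Gatad2b, Ddx17 and Tmx4 higher. The KO response had 4 calls at an unadjusted p with 2-fold (Txnip and Arrdc4 lower, Chac1 and 2410006H16Rik higher). The cause of these shifts was not tested. The share of higher genes was 58.0% in the fit reported, 50.4% without WT GD replicate 1 and 64.4% without KO GD replicate 1.

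Differences of genes that were not called turned sign with single choices. With the probe of smallest p, Siah1b was at -0.15 and Trib3 at -0.055. As single arrays were left out, Asns ranged from -0.30 to 0.052, Atf4 from -0.11 to 0.29, Ddit3 from -0.94 to 0.41, Siah1b from -0.24 to 0.40 and Trib3 from -0.50 to 0.50. No called gene named in the text reversed. Of 1888 alternative values for named genes, 1664 kept direction and call, 203 lost the call, 12 gained it and 9 reversed. Cbr2, Golim4 and Ptges lost the call most often, under 9 alternatives each.

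The labels number the arrays 1 and 2 in every group. Deviations of same-numbered arrays correlated between the 4 groups at 0.340 to 0.744, a hint from the data only, since 2 numbers cannot establish a pairing. With a replicate block 595 genes were called under GD (all 483 among them), 612 untreated and 0 for the change of the KO effect. With the block in the fit of 8 arrays, chosen after seeing the data, 584 were called under GD and 0 for the change. Signal near background limits 118 higher and 46 lower genes to lower bounds.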
